A study of Mus musculus with 11 samples.

Results

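The Notch receptors Notch1, Notch2, Notch3 and Notch4, the ligands Jag1, Jag2, Dll1 and Dll4 and the target genes Hes1 and Hey1 were followed across 11 mouse skin tumours. The 10 genes were found by their mouse symbol, and all 10 of 10 were present among the 18756 mouse genes of the deposited table and passed the filter on low counts. The tumours were taken at end point from C57BL/6 mice of an engineered melanoma model and measured by RNA sequencing. There were 5 libraries of the genotype GNA11 Q209L Bap1 KO, 2 of GNA11 Q209L and 4 of BRAF V600E Bap1 KO. GNA11 Q209L is an activated G protein subunit found in uveal melanoma, BRAF V600E is the activated kinase common in melanoma of the skin, and Bap1, a tumour suppressor, removes ubiquitin from proteins in the nucleus. The comparison of GNA11 Q209L Bap1 KO with GNA11 Q209L sets tumours with the Bap1 knockout against tumours of the same oncogene without it, and the comparison with BRAF V600E Bap1 KO sets 2 oncogenes against each other under the same Bap1 label. The labels give no age, sex, Cre driver or cell of origin for any of the 3 genotypes. Header lines of the table write the Bap1 state as BAP1 F/F for both knockout genotypes and as WT for GNA11 Q209L.

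Notch receptors are single-pass membrane proteins that are activated by Jagged or Delta-like ligands on a neighbouring cell. Ligand binding opens the receptor to cleavage by an ADAM protease and then by gamma-secretase, and the freed intracellular domain joins the DNA-binding protein RBPJ and a Mastermind coactivator to switch on genes such as those of the HES and HEY repressor families. In skin, Notch signalling keeps melanocyte stem cells and melanoblasts alive, drives keratinocytes to differentiate, and shapes blood vessels through Dll4, Notch4 and Notch3.

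The libraries differed in cell content. Total counts ran from 18338100 to 81035100. The 8 melanocyte markers summed to between 76510 and 99740 CPM (each count as a share of its library's TMM-scaled total) in GNA11 Q209L Bap1 KO, to 68010 and 66750 CPM in GNA11 Q209L, and to between 50.3 and 654 CPM in BRAF V600E Bap1 KO. Sox10, which Schwann cells express too, made up 533 and 232 CPM of that sum in replicates 3 and 4 of BRAF V600E Bap1 KO, against 1.93 and 3.58 CPM in its replicates 1 and 2, and the other 7 markers were at most 52.2 CPM in each library of that genotype, so the pigment markers of the labelled melanoma were low there. The 10 epidermal keratinocyte markers summed to 1602 CPM in replicate 1 of GNA11 Q209L Bap1 KO and to between 4.60 and 10.6 CPM in its other libraries, to 13.5 and 7.18 CPM in GNA11 Q209L, where Krt1 and Ivl were at 0, and to 143, 290.4, 12890 and 4170 CPM in replicates 1 to 4 of BRAF V600E Bap1 KO. Replicate 4 of BRAF V600E Bap1 KO also held 144300 CPM of 5 salivary gland markers. Bap1 itself stood at 101.5 to 170.1 CPM in the GNA11 Q209L Bap1 KO libraries, at 85.1 and 137 CPM in GNA11 Q209L and at 54.7 to 71.3 CPM in BRAF V600E Bap1 KO; the exons that the knockout removes are not named in the sources used here, so these gene totals do not check the label. At the foot of the table the Bap1 entry reads NA for replicates 2 and 4 of BRAF V600E Bap1 KO, and replicates 1 and 2 of GNA11 Q209L Bap1 KO share a title identifier. Xist was above 50 CPM in 1 of 5 libraries of GNA11 Q209L Bap1 KO, in both of GNA11 Q209L and in 2 of 4 of BRAF V600E Bap1 KO. The labels do not say that the libraries of a genotype came from separate animals, so the p-values measure the spread between these libraries alone.

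Against BRAF V600E Bap1 KO, GNA11 Q209L Bap1 KO tumours had less RNA of the receptor Notch2, the ligands Jag1 and Dll1 and the target Hes1, and more of the ligand Dll4. The fold changes were 14.2-fold lower for Jag1, 6.92-fold lower for Dll1, 6.38-fold lower for Hes1, 3.31-fold lower for Notch2 and 2.19-fold higher for Dll4. Thus 5 of the 10 genes passed an adjusted p of 0.05 in edgeR's quasi-likelihood test, against 41.2% of all 17350 genes tested. Groups did not overlap for 3 of the 10 genes, Notch2, Jag1 and Dll1, all lower, against 31.8% of all genes in either direction and 17.2% lower. Genes called lower were 4 of 10, against 24.7% of all genes, and 1 of 10 was called higher, against 16.5%. The share of Notch genes called is thus close to the background and is no result about the family; the direction and size of single genes are given for each gene in turn. The median log2 fold change of the 10 genes was -1.17, beside -0.26 over all genes tested. Cell type markers moved in the same comparison. Called lower were 8 of 8 fibroblast, 6 of 6 hair follicle, 5 of 5 skeletal muscle, 5 of 6 T cell and 4 of 10 keratinocyte markers, and 7 of 8 melanocyte markers were called higher. The fibroblast markers summed to between 299 and 2300 CPM in GNA11 Q209L Bap1 KO and to between 3214 and 22800 CPM in BRAF V600E Bap1 KO, with no overlap and no marker at 0. The hair follicle markers summed to between 0.415 and 2.28 CPM in GNA11 Q209L Bap1 KO and to between 1.78 and 5348 CPM in BRAF V600E Bap1 KO libraries. The T cell markers summed to between 7.12 and 17.8 CPM in GNA11 Q209L Bap1 KO and to between 14.7 and 53.8 CPM in BRAF V600E Bap1 KO libraries. The part of these cell types in the lower Notch2, Jag1, Dll1 and Hes1 values was not tested beyond the keratinocyte-marked libraries described with Notch1. In tissue RNA, fewer cells of a type and less RNA per cell cannot be told apart, which holds for every difference given here.

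**Figure D1:**
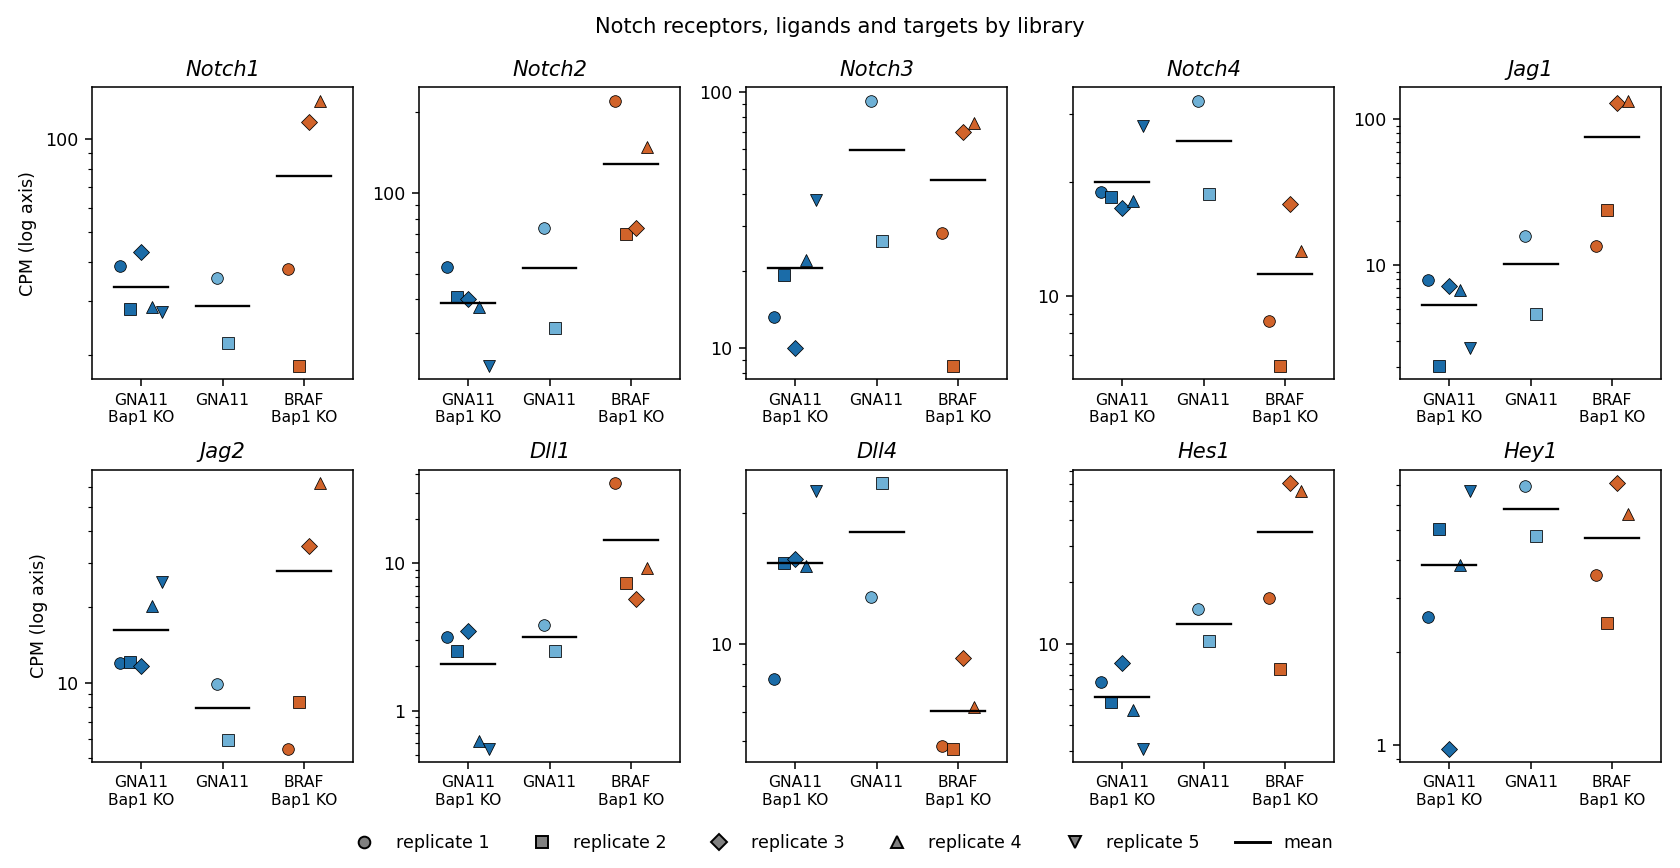
CPM on a log axis of each of the 10 Notch genes in every library, by genotype, with GNA11 Q209L Bap1 KO in dark blue (n = 5), GNA11 Q209L in light blue (n = 2) and BRAF V600E Bap1 KO in orange (n = 4); symbols give the replicate and lines the mean. Jag1, Notch2 and Dll1 lie lower in all GNA11 Q209L Bap1 KO libraries than in any BRAF V600E Bap1 KO library, and replicates 3 and 4 of the BRAF V600E genotype hold the highest Jag1 and Hes1.

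None of the 10 genes passed the test between GNA11 Q209L Bap1 KO tumours and those of GNA11 Q209L. The background is as low, since 0.0288% of all genes (5 of 17350) passed. At an unadjusted p under 0.05 the count was 0 of 10 genes, against 11.4% of all genes. DESeq2 and limma voom also called 0 of the 10, where they called 433 and 5 genes over the whole table. The log2 differences ran from -1.54 for Notch3 to 1.04 for Jag2. Their 95% intervals were wide, from -3.16 to 0.08 for Notch3 and from -0.80 to 2.87 for Jag2, so changes of over 2-fold are not excluded by these 7 libraries. Groups did not overlap for Jag2, which was higher, and Hes1, which was lower in GNA11 Q209L Bap1 KO, that is for 2 of 10 genes against 16.6% of all genes. The median of the 10 was -0.52, beside 0.00 over all genes.

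The sequences just before the RefSeq start sites of Notch2, Jag1, Dll1 and Dll4 are shown. These are the receptor and ligand genes called in GNA11 Q209L Bap1 KO over BRAF V600E Bap1 KO. RefSeq windows of 250 bases upstream of the start (GRCm38.p6) were at hand for 8 of the 10 genes, in 9 windows since Dll1 has 2; none was used for Hes1 and Hey1. Capitals mark matches on either strand to GGGCGG, the GC box bound by SP factors, or to TGANTCA, the site of AP-1. They also mark the E-box letters CACGTG, the M-box letters of pigment genes, which are CATGTG, and the core bound by RBPJ, which is TGGGAA. Notch2 lies on the plus strand, with its window at chr3:98013288-98013537, and Dll4 on the plus strand, at chr2:119325534-119325783. Jag1 lies on the minus strand, at chr2:137116521-137116770, and the windows of Dll1 are on the minus strand, at chr17:15375824-15376073 and chr17:15376933-15377182. RefSeq starts differ from the GENCODE gene bounds used for exon lengths. By those bounds the first window of Dll1 and the windows of Notch1 and Jag2 lie wholly inside the gene. The windows of Jag1, Notch2 and Notch4 lie partly inside it.
Notch2: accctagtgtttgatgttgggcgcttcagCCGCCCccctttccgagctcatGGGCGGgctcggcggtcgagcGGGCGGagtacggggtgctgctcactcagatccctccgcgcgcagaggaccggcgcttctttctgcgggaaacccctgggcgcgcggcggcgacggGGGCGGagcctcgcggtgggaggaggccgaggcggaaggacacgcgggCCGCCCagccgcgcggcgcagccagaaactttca
Jag1: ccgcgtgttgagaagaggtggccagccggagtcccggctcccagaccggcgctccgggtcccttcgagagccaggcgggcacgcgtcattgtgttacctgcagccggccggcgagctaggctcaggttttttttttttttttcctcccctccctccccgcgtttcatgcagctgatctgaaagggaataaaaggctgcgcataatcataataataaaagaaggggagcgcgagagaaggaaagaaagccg
Dll1 window 1: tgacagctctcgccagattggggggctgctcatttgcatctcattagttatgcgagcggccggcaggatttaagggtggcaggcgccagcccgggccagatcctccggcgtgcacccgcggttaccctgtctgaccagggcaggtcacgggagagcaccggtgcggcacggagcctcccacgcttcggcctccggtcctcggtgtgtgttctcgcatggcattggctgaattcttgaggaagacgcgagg
Dll1 window 2: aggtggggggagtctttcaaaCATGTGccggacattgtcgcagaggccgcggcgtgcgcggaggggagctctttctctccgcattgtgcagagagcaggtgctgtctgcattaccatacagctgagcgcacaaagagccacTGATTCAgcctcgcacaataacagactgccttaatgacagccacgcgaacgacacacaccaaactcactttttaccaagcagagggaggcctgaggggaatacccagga
Dll4: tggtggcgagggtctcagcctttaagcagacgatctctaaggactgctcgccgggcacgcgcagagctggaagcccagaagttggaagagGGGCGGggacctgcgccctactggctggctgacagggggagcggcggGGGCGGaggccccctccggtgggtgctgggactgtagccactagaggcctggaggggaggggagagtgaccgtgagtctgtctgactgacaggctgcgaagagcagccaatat
The GC box was matched 5 times before Notch2, 2 times before Dll4 and 0 times before Jag1 and in both windows of Dll1. Of the 9 windows of the 8 genes, 5 held a GC box (those of Notch1, Notch2, Notch3, Jag2 and Dll4), against 32.7% of 32851 RefSeq windows of the same length. The second window of Dll1 held the AP-1 letters and CATGTG 1 time each, which 6.75% and 12.3% of all windows hold. The RBPJ core was matched in 0 of the 9 windows, against 21.6% of all windows, and CACGTG in 0 against 6.02%; no match says only that these letters are not in this window. A match is a description of the letters and not of binding.

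Notch1, the receptor of keratinocytes and of many other cells, had 38.8, 28.1, 43.2, 28.7 and 27.5 CPM in the 5 GNA11 Q209L Bap1 KO libraries, 35.6 and 21.9 CPM in the 2 GNA11 Q209L libraries, and 38.0, 18.5, 113.6 and 133 CPM in the 4 BRAF V600E Bap1 KO libraries. Replicates 3 and 4 of BRAF V600E Bap1 KO were far above all other libraries, while its replicates 1 and 2 lay among them. On the log2 scale GNA11 Q209L Bap1 KO over BRAF V600E Bap1 KO gave -1.19 ± 0.49 (SE) and did not pass (edgeR adjusted p = 0.0727). It passed without BRAF V600E Bap1 KO replicate 1 (adjusted p = 0.0440) or replicate 2 (0.0142). A further fit, chosen after the data were seen, left out the 3 libraries with over 1000 CPM of keratinocyte markers, which were replicate 1 of GNA11 Q209L Bap1 KO and replicates 3 and 4 of BRAF V600E Bap1 KO. Without these keratinocyte-marked libraries the log2 value was 0.16 (adjusted p = 0.784).

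Notch2 had 52.9, 41.0, 40.3, 37.4 and 22.6 CPM in GNA11 Q209L Bap1 KO libraries, 73.7 and 31.4 CPM in GNA11 Q209L, and 221, 70.4, 73.9 and 149 CPM in BRAF V600E Bap1 KO. Every GNA11 Q209L Bap1 KO library lay below every BRAF V600E Bap1 KO library, and replicate 1 of GNA11 Q209L lay level with the lower BRAF V600E libraries. The log2 fold change over BRAF V600E Bap1 KO was -1.73 ± 0.40 (edgeR adjusted p = 0.00851), and Notch2 passed in 18 of 18 alternative analyses, with values from -2.06 to -1.34. Without the keratinocyte-marked libraries it was -2.06 (adjusted p = 0.0156). Within BRAF V600E Bap1 KO, Notch2 was highest in replicate 1, with 143 CPM of keratinocyte markers, and next in replicate 4, with 4170 CPM. Replicates 3 and 2, with 12890 and 290.4 CPM of those markers, held 73.9 and 70.4 CPM of Notch2. The part of this cell content in the Notch2 values was not tested beyond leaving the marked libraries out.

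Notch3, the receptor of pericytes and vascular smooth muscle, had 13.2, 19.3, 9.95, 22.1 and 37.9 CPM in GNA11 Q209L Bap1 KO libraries, 92.9 and 26.3 CPM in GNA11 Q209L, and 28.3, 8.52, 69.9 and 75.8 CPM in BRAF V600E Bap1 KO. All 3 genotypes overlapped, and replicate 1 of GNA11 Q209L held the most. Neither the log2 fold change over GNA11 Q209L (-1.54 ± 0.74, edgeR adjusted p = 0.466) nor that over BRAF V600E Bap1 KO (-1.15 ± 0.62, adjusted p = 0.156) passed. The second passed without BRAF V600E Bap1 KO replicate 2 (-1.50, adjusted p = 0.0493) and was 0.27 (adjusted p = 0.792) without the keratinocyte-marked libraries. The 8 pericyte and smooth muscle markers averaged 4.48 to 5.26 log2 CPM in GNA11 Q209L Bap1 KO, 5.98 and 4.82 in GNA11 Q209L, and 4.02, 4.15, 5.61 and 6.12 in BRAF V600E Bap1 KO, with replicate 1 of GNA11 Q209L and replicates 3 and 4 of BRAF V600E Bap1 KO again the highest. By summed CPM the order differed. Replicate 2 of GNA11 Q209L (1095 CPM) and replicate 2 of GNA11 Q209L Bap1 KO (935.6 CPM) were then the highest. BRAF V600E Bap1 KO replicates 4 and 3 had 907.5 and 800.4 CPM, and GNA11 Q209L replicate 1 had 859.6 CPM. In GNA11 Q209L Bap1 KO over BRAF V600E Bap1 KO, 2 of the 8 markers were called lower and 0 higher. No marker of that list was at 0 in any genotype, and its part in the Notch3 values was not tested.

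Notch4, a receptor mainly of endothelial cells, had 18.7, 18.3, 17.0, 17.8 and 28.0 CPM in GNA11 Q209L Bap1 KO libraries, 32.6 and 18.6 CPM in GNA11 Q209L, and 8.60, 6.58, 17.5 and 13.1 CPM in BRAF V600E Bap1 KO libraries. The lowest GNA11 Q209L Bap1 KO library and the highest BRAF V600E Bap1 KO library overlapped by a narrow margin. A log2 fold change of 0.80 ± 0.34 over BRAF V600E Bap1 KO did not pass (edgeR adjusted p = 0.0763). It passed with DESeq2 (adjusted p = 0.0381), with limma voom (0.0392), without BRAF V600E Bap1 KO replicate 3 (1.07, 0.0347) and without the keratinocyte-marked libraries (1.40, 0.0339), so this value sits at the threshold.

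Jag1, the Jagged ligand of hair follicle, vessel wall and dermis, had 7.87, 2.05, 7.25, 6.76 and 2.70 CPM in GNA11 Q209L Bap1 KO libraries, 15.7 and 4.59 CPM in GNA11 Q209L, and 13.6, 23.7, 130.0 and 134 CPM in BRAF V600E Bap1 KO libraries. The GNA11 Q209L Bap1 KO libraries all lay below the BRAF V600E libraries, which themselves fell into a low and a high pair. Over BRAF V600E Bap1 KO the log2 fold change was -3.82 ± 0.77 (edgeR adjusted p = 0.00443), and Jag1 passed in 18 of 18 alternatives. The size depended on the libraries: without the keratinocyte-marked ones, which include the high pair, it was -2.01 (adjusted p = 0.0486). Over GNA11 Q209L it was -0.94 ± 0.86 (adjusted p = 0.743), and without replicate 1 of GNA11 Q209L the sign turned, to 0.21.

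Jag2, the Jagged ligand of basal epidermis and endothelium, had 11.9, 12.05, 11.7, 20.2 and 25.1 CPM in GNA11 Q209L Bap1 KO libraries, 9.87 and 5.93 CPM in GNA11 Q209L, and 5.47, 8.38, 35.0 and 61.9 CPM in BRAF V600E Bap1 KO. All 5 GNA11 Q209L Bap1 KO libraries lay above both GNA11 Q209L libraries, with a log2 difference of 1.04 ± 0.83 that did not pass (edgeR adjusted p = 0.699). They lay between the low and the high pair of BRAF V600E Bap1 KO, and the log2 fold change of -0.77 ± 0.63 (adjusted p = 0.339) had no stable sign: it was 0.10 with limma voom and 1.30 (adjusted p = 0.0778) without the keratinocyte-marked libraries.

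Dll1, a Delta-like ligand, was the least abundant of the 10 genes in both GNA11 genotypes per length of transcript. It had 3.15, 2.54, 3.46, 0.619 and 0.553 CPM in GNA11 Q209L Bap1 KO libraries, 3.79 and 2.54 CPM in GNA11 Q209L, and 34.6, 7.33, 5.68 and 9.31 CPM in BRAF V600E Bap1 KO libraries. The GNA11 Q209L Bap1 KO libraries all lay below the BRAF V600E libraries, of which replicate 1 stood far above the other three. The log2 fold change over BRAF V600E Bap1 KO was -2.79 ± 0.73 (edgeR adjusted p = 0.0133). It was -1.86 (adjusted p = 0.0392) without BRAF V600E Bap1 KO replicate 1 and -3.57 (adjusted p = 0.0148) without the keratinocyte-marked libraries.

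Dll4, the Delta-like ligand of sprouting endothelium, had 8.31, 15.3, 15.7, 15.1 and 22.5 CPM in GNA11 Q209L Bap1 KO libraries, 12.8 and 23.4 CPM in GNA11 Q209L, and 5.83, 5.76, 9.30 and 7.17 CPM in BRAF V600E Bap1 KO. Replicate 1 of GNA11 Q209L Bap1 KO overlapped with the BRAF V600E libraries and its other 4 did not. Its log2 fold change over BRAF V600E Bap1 KO was 1.13 ± 0.34 (edgeR adjusted p = 0.0233). It missed the threshold with replicate 5 of GNA11 Q209L Bap1 KO left out (1.01, adjusted p = 0.0533), without BRAF V600E Bap1 KO replicate 2 (1.05, 0.0562) and without both BRAF V600E libraries whose Bap1 entry reads NA (1.02, 0.131), and was 1.55 (0.0228) without the keratinocyte-marked libraries. The 10 endothelial markers summed to between 391 and 567 CPM in GNA11 Q209L Bap1 KO, to 1157 and 723 CPM in GNA11 Q209L, and to between 270.4 and 394 CPM in BRAF V600E Bap1 KO, with none at 0. Of these markers 1 of 10 was called higher and 0 lower in GNA11 Q209L Bap1 KO over BRAF V600E Bap1 KO, and the part of endothelial content in the Dll4 and Notch4 values was not tested.

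Hes1, the repressor most often used as a readout of Notch activity, had 6.52, 5.20, 8.06, 4.76 and 3.08 CPM in GNA11 Q209L Bap1 KO libraries, 14.7 and 10.3 CPM in GNA11 Q209L, and 16.8, 7.50, 60.7 and 55.9 CPM in BRAF V600E Bap1 KO. Replicate 2 of BRAF V600E Bap1 KO overlapped with the GNA11 Q209L Bap1 KO libraries, and its replicates 3 and 4 were the highest of all. Over BRAF V600E Bap1 KO the log2 fold change was -2.67 ± 0.57 (edgeR adjusted p = 0.00573). The call was lost in 1 of 18 alternatives: without the keratinocyte-marked libraries the value was -1.22 (adjusted p = 0.0967). Both GNA11 Q209L libraries lay above all 5 GNA11 Q209L Bap1 KO libraries, with a log2 difference of -1.18 ± 0.66 that did not pass (adjusted p = 0.551).

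Hey1, the hairy-related repressor of vessels and bone, had 2.61, 5.03, 0.974, 3.86 and 6.69 CPM in GNA11 Q209L Bap1 KO libraries, 6.91 and 4.77 CPM in GNA11 Q209L, and 3.57, 2.49, 7.07 and 5.64 CPM in BRAF V600E Bap1 KO. All genotypes overlapped. Its log2 fold change was -0.29 ± 0.54 over BRAF V600E Bap1 KO (edgeR adjusted p = 0.682), with a 95% interval from -1.47 to 0.89. No change of Hey1 was thus detected, and changes within that interval are not excluded by these libraries.

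**Figure D2:**
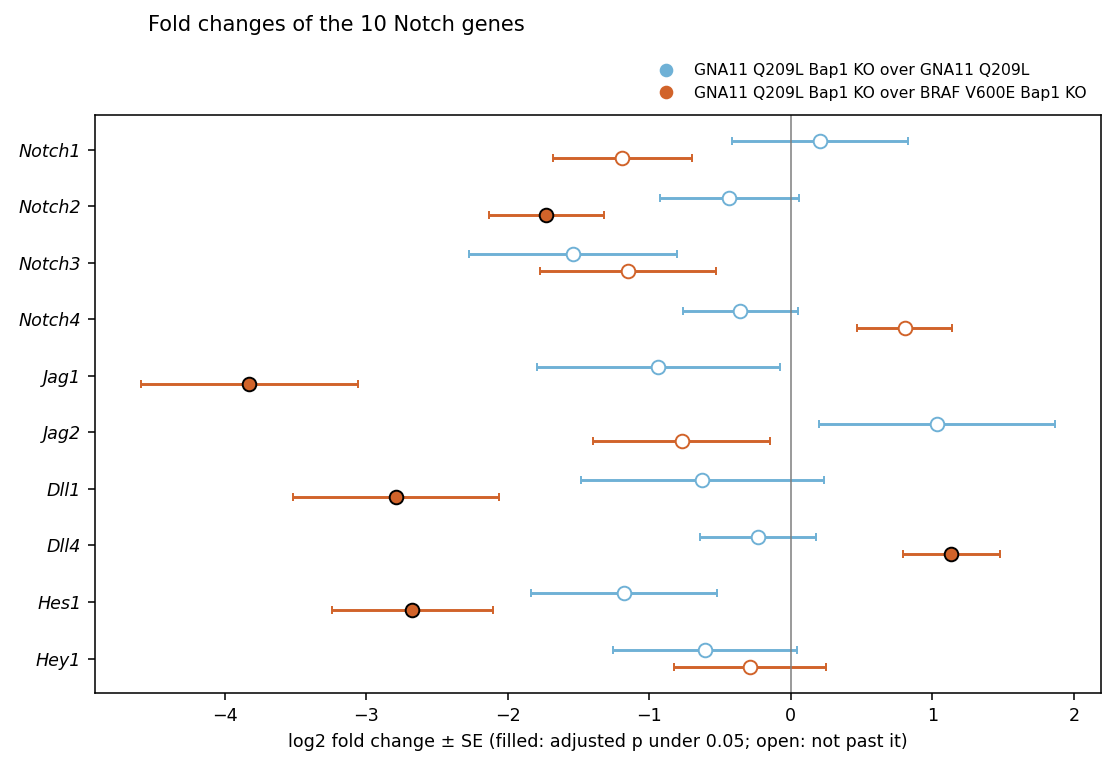
Log2 fold change ± SE (x axis) of the 10 Notch genes in GNA11 Q209L Bap1 KO over GNA11 Q209L (light blue) and over BRAF V600E Bap1 KO (orange), filled where the edgeR adjusted p is under 0.05; both comparisons use the same 5 GNA11 Q209L Bap1 KO libraries. Filled points are those of Notch2, Jag1, Dll1, Dll4 and Hes1 over BRAF V600E Bap1 KO, from -3.82 for Jag1 to 1.13 for Dll4.

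The third comparison set GNA11 Q209L against BRAF V600E Bap1 KO; there the oncogene and the Bap1 label change at once, and the libraries are those of the other comparisons. Only Dll4 passed, with a log2 fold change of 1.37 ± 0.41 (edgeR adjusted p = 0.0491), so 1 of 10 genes was called against 15.2% of all genes. The Dll4 call was lost in 10 of 15 alternatives, among them without GNA11 Q209L replicate 1 (1.74, adjusted p = 0.0630), without GNA11 Q209L replicate 2 (0.87, 0.390) and without BRAF V600E Bap1 KO replicates 1 (1.28, 0.0725), 2 (1.28, 0.0845) or 4 (1.37, 0.0701). Jag1 had a log2 value of -2.89 ± 1.07 (adjusted p = 0.0825), which passed with DESeq2 (adjusted p = 0.00886) and without BRAF V600E Bap1 KO replicate 1 (-3.24, 0.0449) but was -0.88 (0.448) without the keratinocyte-marked libraries. Notch4 had 1.16 ± 0.41 (adjusted p = 0.0750), which passed with DESeq2 (adjusted p = 0.0311), with limma voom (0.0491), without replicate 3 of BRAF V600E Bap1 KO (1.44, 0.0469) and without the keratinocyte-marked libraries (1.74, 0.0337).

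Levels of different genes were set side by side per kilobase of exon sequence, as CPM per kb. In GNA11 Q209L Bap1 KO, Dll4 was the highest, with 4.10 ± 1.34 CPM per kb (SD, n = 5), followed by Hes1 (3.76 ± 1.28), Notch2 (3.70 ± 1.03) and Notch1 (3.50 ± 0.764), which lie within each other's spread. Jag1 (0.949 ± 0.487) and Dll1 (0.577 ± 0.388) were the lowest. By the mean of the 2 GNA11 Q209L libraries, Hes1 led with 10.04 and 6.99 CPM per kb and Notch3 came next with 11.6 and 3.28. The order differed by library: Notch3 was the highest in replicate 1, and Dll4 came second in replicate 2 with 6.24. In BRAF V600E Bap1 KO, Hes1 had 24.0 ± 18.4 CPM per kb (SD, n = 4) and Jag1 13.4 ± 11.7, and their SDs are nearly as large as the means with 2 low and 2 high libraries.

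The mix of ligands and of receptors is given on the same per length scale, as a description with no test. Dll4 made up 32.4% to 54.3% of the summed RNA of the 4 ligands in GNA11 Q209L Bap1 KO, 37.1% and 69.9% in GNA11 Q209L, and 4.72% to 16.3% in BRAF V600E Bap1 KO. Jag1 made up 4.16% to 20.5% in GNA11 Q209L Bap1 KO, 30.4% and 9.17% in GNA11 Q209L, and 16.4% to 68.0% in BRAF V600E Bap1 KO. The leading ligand of BRAF V600E Bap1 KO was Dll1 in replicate 1, with 65.7%, and Jag1 in replicates 2, 3 and 4. Among receptors, Notch4 gave 20.9% to 30.3% in GNA11 Q209L Bap1 KO, 18.1% and 24.7% in GNA11 Q209L, and 4.36% to 9.31% in BRAF V600E Bap1 KO. Notch2 gave 15.4% to 37.0% in GNA11 Q209L Bap1 KO, 25.7% and 26.2% in GNA11 Q209L, and 23.2% to 70.5% in BRAF V600E Bap1 KO. For Dll4 and Notch4 the shares of all 7 GNA11 libraries lay above those of all 4 BRAF V600E libraries. For Jag1 and Notch2 they overlapped. Between the GNA11 genotypes the shares of these 4 genes overlapped, as did those of Notch3 and Dll1, but not those of Jag2 and Notch1. Jag2 made up 26.21% to 42.55% in GNA11 Q209L Bap1 KO, above 20.98% and 13.02% in GNA11 Q209L. Notch1 gave 20.63% to 37.26% in GNA11 Q209L Bap1 KO, narrowly above 13.73% and 20.27% in GNA11 Q209L.

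Within BRAF V600E Bap1 KO, 8 of the 10 genes (Notch1, Notch3, Notch4, Jag1, Jag2, Dll4, Hes1 and Hey1) were highest in replicates 3 and 4, the libraries with 12890 and 4170 CPM of keratinocyte markers and with 22800 and 15010 CPM of 8 fibroblast markers. Notch2 and Dll1 were highest in replicate 1, with 143 CPM of keratinocyte and 3489 CPM of fibroblast markers. The part of this cell content in the Notch values was not tested beyond leaving those libraries out. With the 3 keratinocyte-marked libraries left out, 5 of the 10 genes were called, against 27.5% of the 16363 genes tested in that fit. Notch2, Jag1 and Dll1 were lower, against 15.2% of all genes, and Dll4 and Notch4 were higher, against 12.3%.

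**Figure D3:**
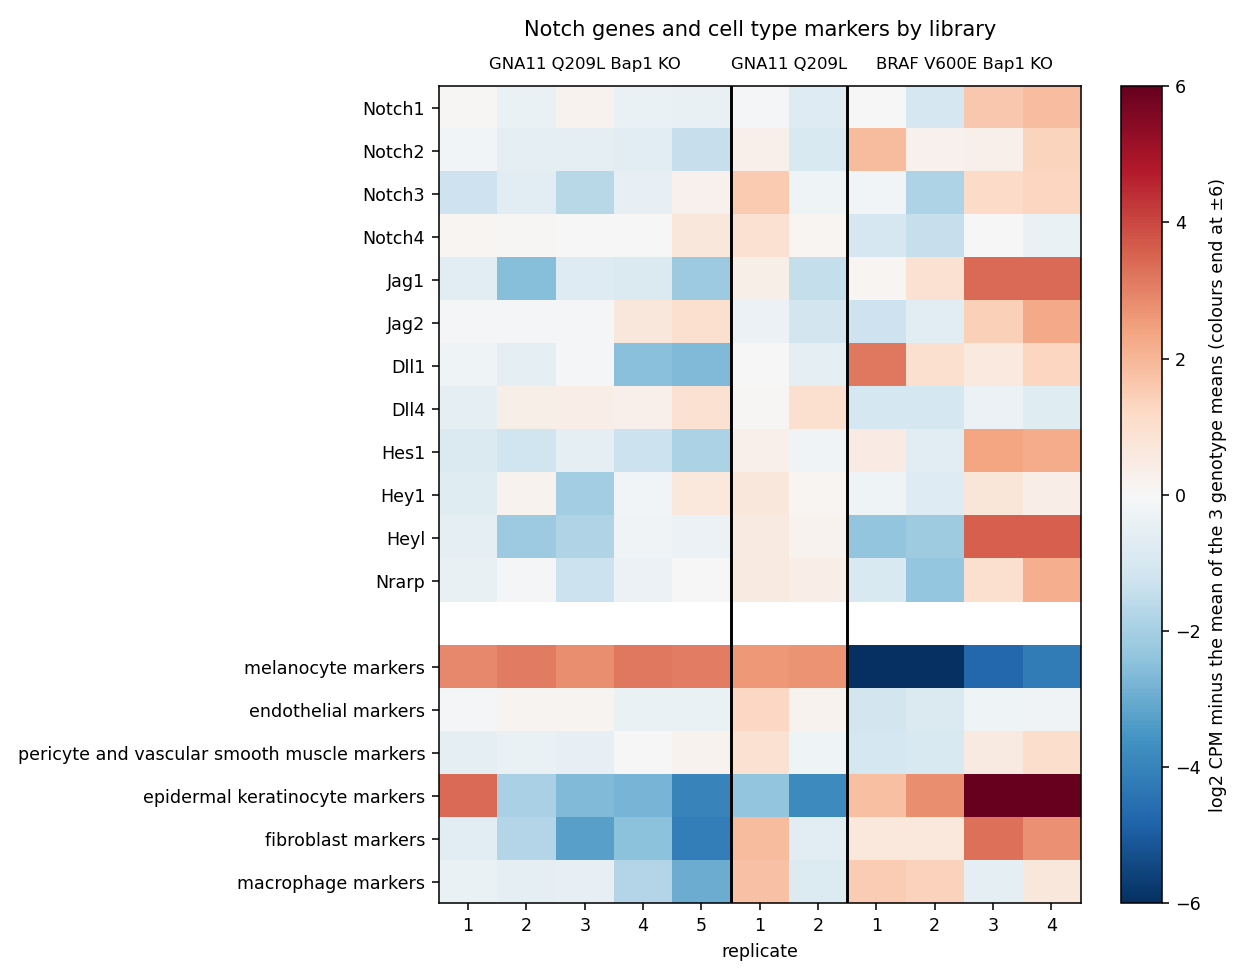
Log2 CPM of the 10 Notch genes, Heyl and Nrarp (upper rows) and mean log2 CPM of 6 marker lists (lower rows) in each library, each row centred on the mean of its 3 genotype means; red is higher, blue lower, and colours end at ±6. Replicates 3 and 4 of BRAF V600E Bap1 KO are red for Jag1, Hes1, Heyl and the keratinocyte list, whose mean there is 8.53 and 8.13 log2 CPM.

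The other genes of the pathway were taken from 6 lists of 55 genes, of which 51 were in the table and 49 passed the filter on low counts. Hes2 and Hes7 did not pass it. In GNA11 Q209L Bap1 KO over BRAF V600E Bap1 KO, 6 of the 49 were called higher and 11 lower, against 16.5% and 24.7% of all genes, and their median log2 fold change was -0.31. In GNA11 Q209L Bap1 KO over GNA11 Q209L, edgeR called 0 of the 49, with 9 at an unadjusted p under 0.05 against 11.4% of all genes. In GNA11 Q209L over BRAF V600E Bap1 KO, 4 were called higher and 1 lower, against 9.27% and 5.93% of all genes. Those higher were Aph1c, Psen2, Aph1a and Hes6, and Rbpj was lower. The Rbpj call (edgeR adjusted p = 0.0478) was lost in 9 of 15 alternatives, that of Hes6 in 4 and that of Aph1a in 3. Calls of Aph1c and Psen2 were kept in all 15.

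Many of the 17 calls over BRAF V600E Bap1 KO depended on the libraries or the tool. Without both BRAF V600E libraries whose Bap1 entry reads NA, the calls of Mfap5, Lfng, Ncstn, Aph1a, Fbxw7, Dtx1, Dtx3 and Hes6 were lost, with adjusted p-values from 0.0553 for Aph1a to 0.275 for Ncstn. Without the keratinocyte-marked libraries those of Dlk1, Mfap5, Lfng, Ncstn, Numbl, Fbxw7, Dtx1, Hes6 and Heyl were lost, with adjusted p-values from 0.0868 to 0.392. With limma voom those of Dlk1, Dner, Mfap5, Dtx1 and Heyl were lost (adjusted p from 0.0680 to 0.590), and with the libraries of the shared identifier summed those of Dlk1, Dner, Numbl, Fbxw7, Dtx1 and Heyl (adjusted p from 0.0519 to 0.0754). The calls of Aph1c, Psen2, Adam17, Rbpj and Tle2 were kept in these 4 settings. Calls that rested on single libraries are given gene by gene.

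**Figure D4:**
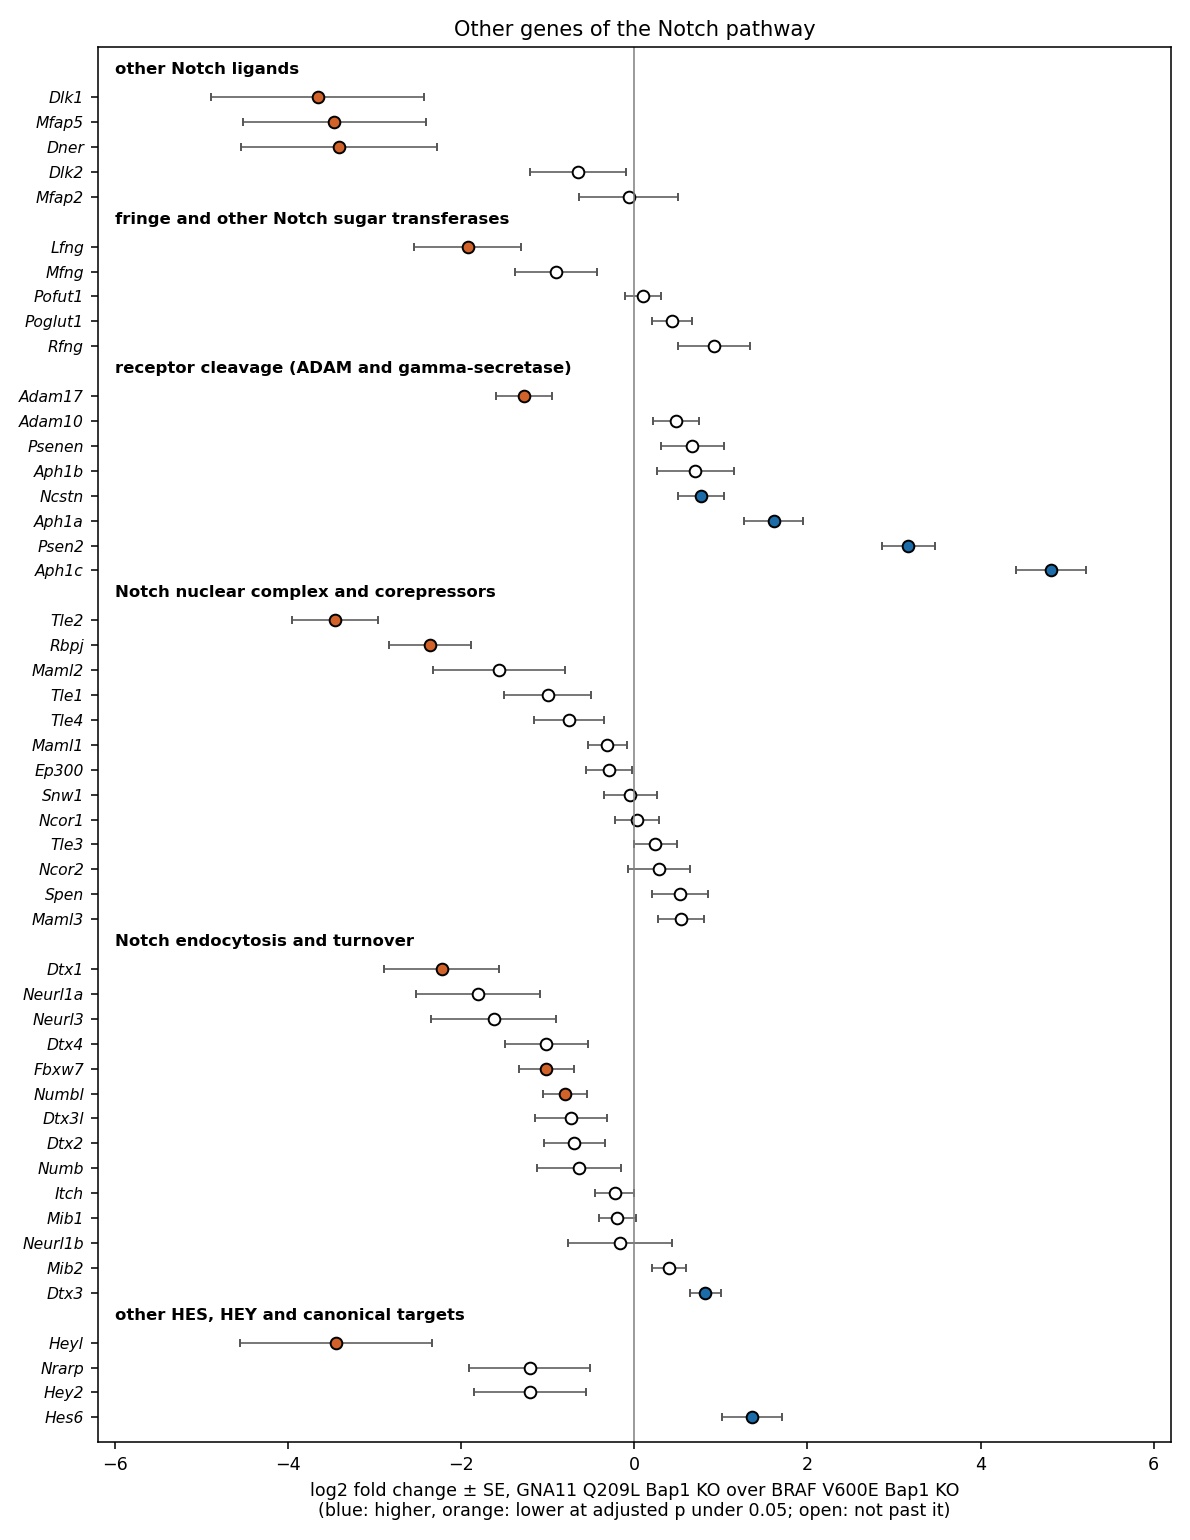
Log2 fold change ± SE (x axis) of the 49 tested pathway genes other than the 10, in GNA11 Q209L Bap1 KO over BRAF V600E Bap1 KO, by list; blue is called higher, orange lower and open not called at an edgeR adjusted p of 0.05. The cleavage list holds 4 blue points, led by Aph1c at 4.81, and the other lists hold mostly open or orange points.

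In GNA11 Q209L Bap1 KO over BRAF V600E Bap1 KO, receptor cleavage was the list with the most genes called higher, 4 of 8 with 1 lower. Over all genes 16.5% were called higher and 24.7% lower. The list's median log2 fold change was 0.74, beside -0.26 over all genes. Psen2, a catalytic subunit of gamma-secretase, had 190.7, 364, 230.3, 234.5 and 221 CPM in GNA11 Q209L Bap1 KO libraries, 299 and 239.5 CPM in GNA11 Q209L, and 19.8, 32.4, 38.1 and 20.3 CPM in BRAF V600E Bap1 KO. All GNA11 libraries lay far above all BRAF V600E libraries, with a log2 fold change of 3.16 ± 0.30 for GNA11 Q209L Bap1 KO over BRAF V600E Bap1 KO (edgeR adjusted p = 0.000183). Aph1c, a scaffold subunit, was higher by 4.81 ± 0.40 (adjusted p = 9.1e-05), but Aph1b (log2 0.71, adjusted p = 0.222) is a near-identical copy, and how reads were divided between them is not given in the sources used here, so both values are uncertain. Aph1a, another scaffold subunit, was higher by 1.61 ± 0.34 on the log2 scale (adjusted p = 0.00558). Of the members chosen after their values were seen, the protease Adam17 was -1.28 ± 0.33 on the log2 scale (adjusted p = 0.0121). Ncstn, likewise chosen, was higher by 0.77 (adjusted p = 0.0370), and its call was lost without any 1 of GNA11 Q209L Bap1 KO replicates 2, 3 or 5 or BRAF V600E Bap1 KO replicates 2, 3 or 4, with adjusted p-values up to 0.0939.

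In the nuclear list, 2 of 13 genes were called, both lower, against 24.7% of all genes. The median was -0.29, beside -0.26 over all genes. Rbpj, the DNA-binding partner of the Notch intracellular domain, had 23.4, 16.2, 22.7, 18.9 and 20.1 CPM in GNA11 Q209L Bap1 KO libraries, 24.0 and 20.5 CPM in GNA11 Q209L, and 203, 135.5, 32.4 and 45.0 CPM in BRAF V600E Bap1 KO. All 7 GNA11 libraries lay below all BRAF V600E libraries, and replicates 1 and 2 of BRAF V600E Bap1 KO were the highest, the pair in which Jag1 and Hes1 were lowest in that genotype. The log2 fold change over BRAF V600E Bap1 KO was -2.36 ± 0.47 (edgeR adjusted p = 0.00439) and -3.13 (adjusted p = 0.000316) without the keratinocyte-marked libraries. Tle2, a Groucho-family corepressor, was lower (log2 -3.46 ± 0.49, adjusted p = 0.000968), with 0.664 to 2.86 CPM in the GNA11 Q209L Bap1 KO libraries and 13.2 to 29.7 CPM in BRAF V600E Bap1 KO libraries. The Mastermind genes Maml1, Maml2 and Maml3 were not called.

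The list of other HES and HEY family genes and canonical targets had 4 tested genes. Of these, 1 was called higher (Hes6) and 1 lower (Heyl), against 16.5% and 24.7% of all genes. Heyl, the third HEY repressor, had 5.21, 1.66, 2.16, 6.62 and 5.98 CPM in GNA11 Q209L Bap1 KO libraries, 11.5 and 8.92 CPM in GNA11 Q209L, and 1.47, 1.70, 92.7 and 93.1 CPM in BRAF V600E Bap1 KO. Its difference over BRAF V600E Bap1 KO rested on 2 libraries: the log2 fold change of -3.44 ± 1.11 (edgeR adjusted p = 0.0304) became 1.36 (adjusted p = 0.157) without the keratinocyte-marked ones. The call was lost as well without any 1 of GNA11 Q209L Bap1 KO replicates 1, 2, 3 or 5 or BRAF V600E Bap1 KO replicates 3 or 4, with adjusted p-values from 0.0548 to 0.0711. Nrarp, a feedback inhibitor that binds the Notch complex, had a log2 value of -1.21 ± 0.70 (adjusted p = 0.183), which passed without BRAF V600E Bap1 KO replicate 2 (-1.59, adjusted p = 0.0479). Hes6, a HES family member known to counteract Hes1, was higher, with 29.5 to 75.9 CPM in GNA11 Q209L Bap1 KO libraries, 40.3 and 76.5 CPM in GNA11 Q209L and 13.1 to 23.9 CPM in BRAF V600E Bap1 KO (log2 1.36 ± 0.34, adjusted p = 0.0119). It did not pass without the keratinocyte-marked libraries (1.16, adjusted p = 0.105) or without the NA libraries (1.37, 0.0611).

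The remaining lists held weaker calls. Of 5 other ligands, 3 were called lower in GNA11 Q209L Bap1 KO over BRAF V600E Bap1 KO, against 24.7% of all genes. The list's median was -3.41, beside -0.26 over all genes. Mfap5, a microfibril protein, had a log2 fold change of -3.47 (edgeR adjusted p = 0.0242) and -1.23 (0.392) without the keratinocyte-marked libraries, and lost its call without GNA11 Q209L Bap1 KO replicates 3 or 4 or BRAF V600E Bap1 KO replicates 3 or 4 (adjusted p from 0.0521 to 0.0547). Dlk1, an atypical ligand, and Dner, a neuronal one, each rested on 1 library. Dlk1 had 21.9 CPM in BRAF V600E Bap1 KO replicate 3, without which its log2 value of -3.66 was -1.52 (adjusted p = 0.242), and its call was lost without any 1 of the GNA11 Q209L Bap1 KO replicates 1 to 5 too. Dner had 10.2 CPM in BRAF V600E Bap1 KO replicate 1, without which its log2 value of -3.41 was -1.54 (adjusted p = 0.195), and the call was lost without any 1 of GNA11 Q209L Bap1 KO replicates 1 to 4 too. In the GNA11 Q209L Bap1 KO libraries Dner had 0.163, 0.498, 0.162, 0 and 0.640 CPM. These values are near the depth limit, so the size of its fold change is uncertain. Among the sugar transferases that tune ligand choice, 1 of 5 was called, against 41.2% of all genes in either direction. The fringe enzyme Lfng was lower (log2 -1.93, adjusted p = 0.0295). It lost its call without GNA11 Q209L Bap1 KO replicates 1, 4 or 5 or BRAF V600E Bap1 KO replicates 2 or 4 (adjusted p from 0.0530 to 0.0645). The call was lost as well without the keratinocyte-marked libraries (0.117) and without the NA libraries (0.157).

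Of 14 genes of endocytosis and turnover, 1 was called higher and 3 lower in GNA11 Q209L Bap1 KO over BRAF V600E Bap1 KO. Over all genes 16.5% were called higher and 24.7% lower. The list's median was -0.71, beside -0.26 over all genes. Dtx3, a Deltex-family ubiquitin ligase, was higher, with 193 to 226 CPM in GNA11 Q209L Bap1 KO libraries, 134 and 149 CPM in GNA11 Q209L and 101.4 to 145.5 CPM in BRAF V600E Bap1 KO (log2 0.82 ± 0.18, edgeR adjusted p = 0.00596), and missed the threshold without the NA libraries (0.74, adjusted p = 0.0570). Fbxw7, the ubiquitin ligase subunit that marks the Notch intracellular domain for degradation, was lower (log2 -1.02 ± 0.32, adjusted p = 0.0267). Its call was lost without GNA11 Q209L Bap1 KO replicates 1, 2 or 5 or BRAF V600E Bap1 KO replicates 3 or 4, with adjusted p-values from 0.0545 to 0.0709. Dtx1, at 0.216 to 0.847 CPM in the GNA11 Q209L Bap1 KO libraries and 0.404 to 3.72 CPM in BRAF V600E Bap1 KO, was lower (log2 -2.23, adjusted p = 0.0222), and lost its call without GNA11 Q209L Bap1 KO replicates 2, 3 or 4 or BRAF V600E Bap1 KO replicate 4 (adjusted p from 0.0529 to 0.0700). Its log2 value was -1.12 (adjusted p = 0.302) without the keratinocyte-marked libraries, -1.57 (0.135) with limma voom and -1.60 (0.143) without the NA libraries. Numbl, chosen after its values were seen, was lower (log2 -0.80, adjusted p = 0.0302), and lost its call without GNA11 Q209L Bap1 KO replicates 1, 3, 4 or 5 or BRAF V600E Bap1 KO replicates 1 or 3 (adjusted p from 0.0681 to 0.105).

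The genes whose profiles over the 11 libraries were most like those of the Notch genes were found by the root mean square (RMS) difference of centred log2 CPM, among 12362 candidates. Dll4 had the closest neighbours, Ndufv3, Gab2 and Lcmt1, at 0.21, 0.22 and 0.23. Notch4 followed, with Snx27 and Tmem9b at 0.30. Notch1 was closest to Clcn5 (0.34), Notch2 to Ccdc109a (0.36) and Hes1 to Lrig3 (0.37). Notch3 was closest to Taf13 (0.51), Dll1 to Ankrd33b (0.55), Jag1 to Slit1 (0.44), Jag2 to Rhbdl3 (0.43) and Hey1 to Sec22a (0.41). No Notch gene was the closest neighbour of another, and the measure describes these 11 libraries alone. Profiles were centred but not scaled, so a gene that varies little tends to have closer neighbours. Centred values ran from -1.06 to 0.95 for Dll4 and from -2.57 to 3.42 for Jag1. The RMS values therefore do not rank the Notch genes by likeness.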

How the data were processed

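RNA of 11 skin tumours was sequenced from 1 ug of total RNA with standard Illumina libraries, per the labels' protocols; strand is not mentioned there. Estimated counts for each gene were deposited by the authors in 1 table, as whole numbers with no normalisation. The unit is named expected counts because the same columns hold 3 quality measures that are not whole; rounding changed no gene value. STAR and mm9 are named in the submitters' processing notes. For the versions, the counting program, the annotation and the treatment of multiply mapped reads, the sources used here give nothing. All 11 columns were matched to samples by title.

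The quality lines and 6 transgene lines were kept out of library sizes and tests. After 7 repeat lines were dropped, 18756 mouse genes were left, of which 17911 had their ID in GENCODE names. Another 21 symbols turned into dates were restored from their IDs. Tests used edgeR 4.0.16 (quasi-likelihood, under R 4.3.3) on all 11 libraries with genotype as the only term, TMM scaling and filterByExpr, which kept 17350 genes. Two-sided p-values were adjusted by Benjamini-Hochberg over these genes. The SE is the size of the log2 fold change over the square root of its F value, and 95% intervals use the t quantile at the test's 10.8 degrees of freedom. A count of 3 equals 0.0370 to 0.164 unscaled CPM in a library; such floors cover counting error only. Alternatives were other scaling factors (RLE, upper quartile), no filter, DESeq2 1.42.0, limma voom 3.58.1, 2 genotypes only, the libraries of the shared identifier summed, and each library left out. Leaving out libraries by the NA entry or by keratinocyte markers was added after the data were seen. The script was tested on simulated data.

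Exon lengths (GENCODE M21, GRCm38) serve for levels per length only, and promoter windows are RefSeq's (GRCm38.p6). Exons of overlapping transcripts were merged. The text names all 10 Notch genes and, of each other pathway list, up to 3 genes with the smallest p and an average log2 CPM of at least 0; likeness used log2 CPM with a prior count of 2 and named up to 3 genes for each Notch gene. Members and lists were chosen with earlier results of these data known. The listed genes Dll3, Eogt, Hes3 and Hes5 were not analysed here. Some items are not reported here.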

Additional observations from a re-analysis of the deposited data

Results flagged for a closer look

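Single libraries stood apart for 7 of the 80 gene and genotype pairs examined over 40 genes (groups of 4 or 5 libraries), where chance alone gives about 1 in 20. The gap of the extreme library to its nearest neighbour is given as a share of the whole range. Notch4 was highest in GNA11 Q209L Bap1 KO replicate 5, with 28.0 CPM beside 17.0 to 18.7 CPM in the other libraries of that genotype (share 0.846). Dll1 was highest in BRAF V600E Bap1 KO replicate 1, with 34.6 CPM beside 5.68 to 9.31 CPM (0.874), and Dner in the same library, with 10.2 CPM beside 0.627 to 1.19 CPM (0.941). Dlk1 was highest in BRAF V600E Bap1 KO replicate 3, with 21.9 CPM beside 0.545 to 2.50 CPM (0.909). In GNA11 Q209L Bap1 KO, Psen2 was highest in replicate 2, with 364 CPM beside 190.7 to 234.5 CPM (0.748). Aph1b was lowest in replicate 4 of that genotype, with 11.4 CPM beside 22.6 to 26.7 CPM (0.733), and Dtx1 was highest in replicate 5, with 0.847 CPM beside 0.216 to 0.380 CPM (0.740).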

How the results depend on the processing

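No paired analysis was possible because the labels give no replicate numbers that the genotypes share. In GNA11 Q209L Bap1 KO over BRAF V600E Bap1 KO, Notch2, Jag1 and Dll1 were called in 18 of 18 alternatives, Hes1 in 17 and Dll4 in 15. The 7146 genes called there became 3571 without the BRAF V600E libraries whose Bap1 entry reads NA and 4498 without the keratinocyte-marked libraries; leaving out each replicate gave 5448 to 7176 genes and 4 to 6 of the 10 Notch genes. Signs turned for Jag2 with limma voom (0.10) and, without the keratinocyte-marked libraries, for Notch1 (0.16), Notch3 (0.27), Jag2 (1.30), Hey1 (0.44), Heyl (1.36) and Nrarp (1.07); leaving out each replicate gave -0.52 to 0.04 for Hey1. The cause was not tested.

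In GNA11 Q209L Bap1 KO over GNA11 Q209L, the 5 genes called became 3 with RLE factors, 3 without a filter, 433 with DESeq2, 64 with the 2 genotypes alone, 0 with the shared-identifier libraries summed and 0 to 1 with each replicate left out, and none of the 10 Notch genes was called in any of the 14 alternatives. Leaving out each replicate moved log2 values across 0, from -0.04 to 0.60 for Notch1, -0.86 to 0.31 for Notch2, -0.64 to 0.10 for Notch4, -1.52 to 0.21 for Jag1, -0.60 to 0.33 for Dll4, -2.48 to 0.55 for Lfng, -1.06 to 0.00 for Rfng, -0.85 to 0.25 for Adam17, -2.52 to 0.66 for Neurl3 and -0.72 to 0.29 for Hes6.

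In GNA11 Q209L over BRAF V600E Bap1 KO, the 2637 genes called became 5383 with DESeq2, 417 with the 2 genotypes alone, 838 without the NA libraries and 265 to 2867 with each replicate left out. The 1 Notch gene called became 0 with upper quartile factors, 0 without a filter, 0 with the 2 genotypes alone, 0 without the NA libraries, 3 with DESeq2, 2 without the keratinocyte-marked libraries and 0 to 2 with each replicate left out. Signs turned with limma voom for Heyl (0.28) and Nrarp (0.70), without the NA libraries for Nrarp (0.16), and without the keratinocyte-marked libraries for Notch1 (0.02), Jag2 (0.18), Hes1 (0.03), Heyl (2.67) and Nrarp (1.90). Leaving out each replicate gave -0.79 to 1.04 for Notch3 and -0.74 to 0.64 for Nrarp. With 2 GNA11 Q209L libraries, a difference of the Bap1 knockout was detectable only where large. Dtx1, at 0.216 to 0.380 CPM in GNA11 Q209L Bap1 KO replicates 1 to 4, sits near the depth limit of those libraries. A count of 3 equals 0.133 to 0.164 unscaled CPM there. Dner, at 0.163, 0.498, 0.162 and 0 CPM in the same replicates, sits at or near that limit too. Dll1 lay further above that limit, at 0.553 to 3.46 CPM in GNA11 Q209L Bap1 KO. Leaving 1 GNA11 Q209L library assumes that it varies like the other genotypes.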
